A study of Mus musculus with 2 samples.

Results

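The genes described here encode peptide hormones and peptide messengers of the pancreatic islet: Ins2, Iapp, Gcg, Sst, Ppy, Pyy, Ghrl, Npy, Ucn3 and Cck. They were chosen by name. Every probe set (a group of short DNA probes for one transcript) whose only gene symbol was one of these 10 was taken, which gave 13 probe sets among 45101 on the array and 10 genes among 18193. Iapp had 4 probe sets and each of the other genes had 1. The groups were islets of male mice with the genotype miR-141/200c_overexpression, called transgenic below, and islets of male mice labelled Bl6_control, called control. Both groups were 6 weeks old, their islets received no treatment after extraction, and each group was measured on 1 array (n = 1). The sample name Ripmir is read here, from general knowledge of the study and not from a label that states it, as a rat insulin promoter driving the microRNAs, a promoter active mainly in beta cells. The labels state neither how many mice were pooled into a sample nor whether the control mice were littermates of the transgenic mice.

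Islet endocrine cells store peptide hormones in dense granules and release them into the blood or onto neighbouring cells. Each hormone is made as a larger precursor that enzymes in the granule cut and trim, and each marks a cell type: insulin and amylin for beta cells, glucagon for alpha cells, somatostatin for delta cells, pancreatic polypeptide for PP cells and ghrelin for the rare epsilon cells. Ucn3 appears in beta cells as they mature after birth in the mouse. Npy is found in immature mouse beta cells and in sympathetic nerves that reach the islet.

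The microRNAs that were overexpressed are shown because they define the transgenic group. Sequences are the mature strands in RefSeq, build GRCm38.p6, written 5′ to 3′ with the seed, bases 2 to 8, in capitals. The seed is the stretch through which a microRNA recognises its target messenger RNAs. Both genes lie on the minus strand of chromosome 6, with the mature strands at chr6:124717917-124717938 for miR-141 and chr6:124718324-124718346 for miR-200c.
mmu-miR-141-3p: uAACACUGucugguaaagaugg
mmu-miR-200c-3p: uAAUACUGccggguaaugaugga
Counted from the 5′ end of miR-141-3p, the seeds differ by the single substitution C4U. The microRNA miR-200a-3p has the seed of miR-141-3p, and miR-200b-3p and miR-429-3p have that of miR-200c-3p. No probe set was named for either overexpressed microRNA, so their own levels were not analysed here.

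Values are log2 RMA values, on which a difference of 1 is a 2-fold change. RMA forces the arrays to a common distribution, and the median was 5.76 on both. That median served as a floor: a gene was compared if at least 1 of its values reached it, which 12143 of 18193 genes and 9 of the 10 hormone genes did, all 9 on both arrays. With 1 array a group no difference has an error or a p-value, and "higher" and "lower" describe these 2 arrays. All 24 probe sets for poly-A control RNAs, which are added to the sample RNA, read higher in the transgenic sample (median 1.51), as did all 18 hybridisation controls (median 0.40). Equal input of islet RNA was therefore not established.

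The main islet hormones were nearly level between the arrays, and Npy, Ucn3 and Ghrl were not. Npy was 3.30-fold higher in transgenic islets, Ucn3 was 1.75-fold lower and Ghrl was 1.57-fold higher. The probe sets of Ins2, Gcg, Sst, Ppy and Pyy and 3 of the 4 for Iapp read above 13 on both arrays, near the top of the scale. Their differences ran from -0.08 to 0.12. Of the 9 compared hormone genes 1, Npy, was at least 2-fold higher in transgenic islets, where 2.51% of all compared genes were. None was at least 2-fold lower, against 0.511% of all compared genes. At a 1.5-fold rule 2 of the 9, Npy and Ghrl, were higher and 1, Ucn3, was lower, where 7.73% and 3.14% of all compared genes were. The median difference of the 9 genes was 0.031, beside 0.029 for all 12143. Of these 9 genes 6 read near the top of the scale, so the median mostly reflects genes at that height. For the other 3, Npy, Ucn3 and Ghrl, the median was 0.65.

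**Figure D1:**
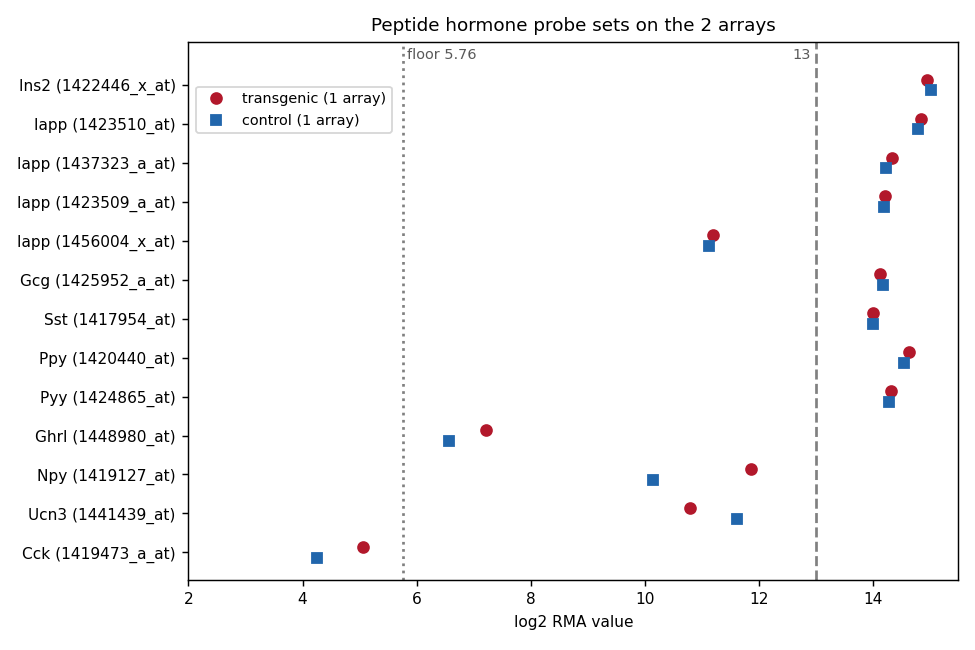
Log2 RMA value (x axis) of each of the 13 hormone probe sets, 1 row each, on the transgenic (circles) and control (squares) arrays; the dotted line is the floor of 5.76 and the dashed line marks 13. Circles and squares nearly coincide for the 8 probe sets above 13, and lie apart for Ghrl, Npy, Ucn3 and Cck.

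Insulin and amylin are the granule products of beta cells. Ins2, which encodes an insulin, read 14.95 on the transgenic and 15.02 on the control array, a difference of -0.08. It held rank 2 among all 45101 probe sets of the transgenic array and rank 1 of the control array, and so sat at the top of the measured range. The probe set is of the _x class, in which some probes can bind other transcripts, and the mouse has a near-identical insulin gene, Ins1, so its signal cannot be given to Ins2 alone.

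Iapp encodes amylin, which is released together with insulin. Its brightest probe set (1423510_at) read 14.84 in transgenic and 14.80 in control islets and held rank 3 on both arrays. Probe set 1437323_a_at read 14.34 in transgenic and 14.22 in control islets, at rank 8 on the transgenic and 13 on the control array. Probe set 1423509_a_at read 14.22 in transgenic and 14.20 in control islets, at rank 14 on both. These 3 gave differences of 0.04, 0.12 and 0.02. The 1456004_x_at probe set was dimmer, at 11.19 in transgenic and 11.13 in control islets, at rank 1207 on the transgenic and 1271 on the control array. Its difference of 0.06 lay within the range of the bright probe sets, although its signal was well below the top of the scale. The 4 probe sets measured 1 RNA sample per group and do not replicate each other.

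Gcg encodes glucagon, the alpha cell hormone that raises blood glucose, and in the gut the incretin GLP-1. It read 14.13 in transgenic and 14.19 in control islets, a difference of -0.06, at rank 21 on the transgenic and 15 on the control array. Sst encodes somatostatin, which inhibits the release of insulin and glucagon. It read 13.99 on both arrays, with a difference of 0.00093, at rank 34 among transgenic and 26 among control values. The rank of Sst moved while its value did not. At rank 35 the transgenic array read 13.96 and the control array 13.93, so an equal value did not mean an equal rank at this height.

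Ppy encodes pancreatic polypeptide and Pyy peptide YY, relatives of neuropeptide Y that act on the same family of Y receptors. Ppy read 14.63 in transgenic and 14.54 in control islets, a difference of 0.09, at rank 4 on both arrays. Pyy read 14.31 in transgenic and 14.28 in control islets, a difference of 0.03, at rank 11 on the transgenic and 10 on the control array. The labels name beta cells as the source of the RNA, yet glucagon, somatostatin and pancreatic polypeptide transcripts all read among the 35 highest probe sets of both arrays.

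**Figure D2:**
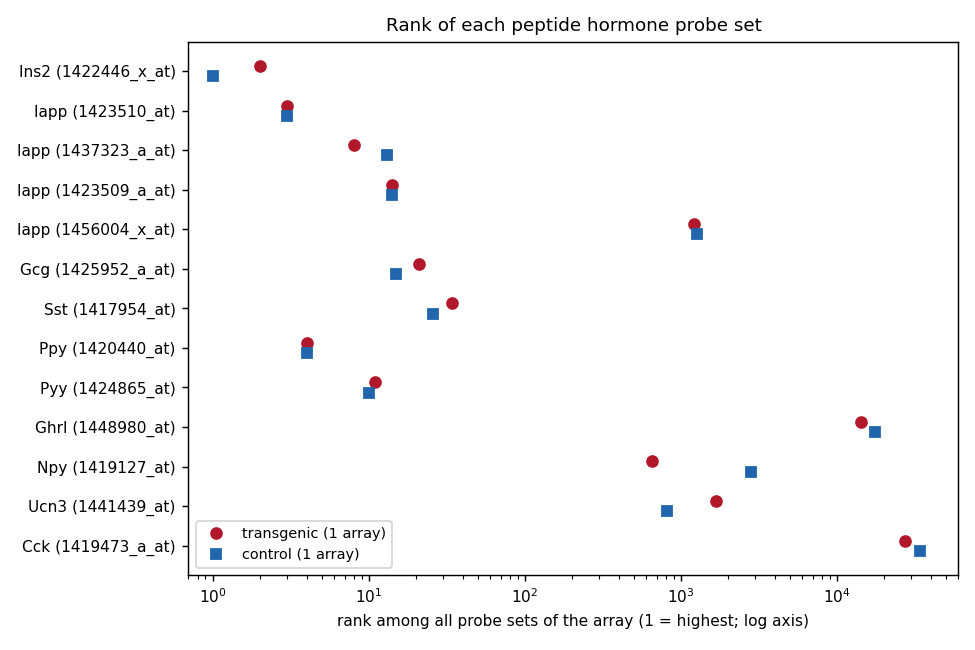
Rank of each of the 13 hormone probe sets among the 45101 of its array (x axis, log scale, 1 is the highest value) on the transgenic (circles) and control (squares) arrays. The probe sets above 13 hold ranks 1 to 34, while Npy stands at 654 on the transgenic and 2803 on the control array, and Ucn3 at 1687 on the transgenic and 820 on the control array.

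Values near the top of the scale were few and close together. Above 13 lay 189 probe sets of the transgenic array, 0.419% of all, and 174 of the control array, 0.386%. At equal ranks from 1 to 35 the arrays differed by at most 0.10, so a probe set that kept its rank kept nearly its value, as the normalization sets it, while one that changed rank was not so bound. When the arrays were quantile normalized once more, Ppy, at rank 4 on both, came out at a difference of 0. Among the 83 compared genes with a mean level of at least 13, the central 95% of differences ran from -0.35 to 0.29. Among the 770 genes between 11 and 13 it ran from -0.62 to 0.51. At least 2-fold apart were 0 of the 83, and 4 higher and 5 lower of the 770, so the count of 0 is near the share in the band below. Compression of the scale and lower noise at high signal cannot be told apart here, and small differences of Ins2, Iapp, Gcg, Sst, Ppy and Pyy do not show that the amounts of these RNAs were equal. In such bulk RNA, a change in the number of cells of a type and a change in RNA per cell cannot be told apart. Probes differ in how strongly they bind, so ranks do not order the hormones by amount of RNA.

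**Figure D3:**
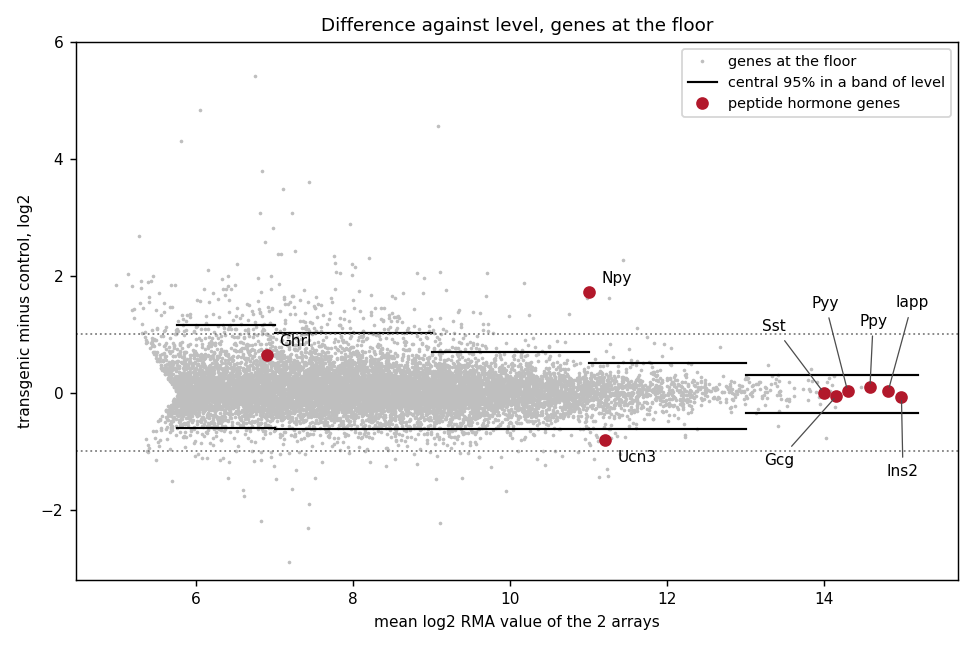
Transgenic minus control log2 difference (y axis) against the mean log2 RMA value of both arrays (x axis) for 12143 compared genes (grey points), with the 9 compared hormone genes as named circles. Black lines bound the central 95% of differences within a band of level and narrow to -0.35 and 0.29 above 13; dotted lines mark 2-fold, and Npy lies above and Ucn3 below the lines of their band.

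Among probe sets with 1 gene symbol, hormone probe sets made up most of the very highest signals. Probe sets with several symbols or none were left out of this ranking. Of the 10 probe sets with 1 gene symbol and the highest mean level, 7 belonged to Ins2, Iapp, Ppy, Pyy and Gcg. Among all 45101 probe sets these 7 held ranks between 2 and 21 on the transgenic and between 1 and 15 on the control array. The other 3 of the 10 were Cela3b, a digestive elastase of acinar cells, at 14.52 in transgenic and 14.42 in control islets, the transthyretin gene Ttr and the granule protein gene Scg2. Scg2 read 14.27 in transgenic and 13.99 in control islets. Ttr, which alpha cells express strongly, read 14.02 at rank 32 in transgenic and 14.27 at rank 12 in control islets, a difference of -0.25, and its 3 further probe sets at the floor gave -0.43 to -0.22. Between these 10 and Sst lay further genes, among them the acinar digestive enzyme genes Cpa1 and Cpb1, which were named after their values were seen.

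Npy, which encodes neuropeptide Y, an inhibitor of insulin release, differed furthest. It read 11.87 in transgenic and 10.14 in control islets, a log2 difference of 1.72 or 3.30-fold. Its rank was 654 among transgenic and 2803 among control values, so that 1.45% of probe sets read higher on the transgenic and 6.21% on the control array. Both values lay well above the floor and below the top of the scale. Of 830 genes whose mean level lay within 0.5 of that of Npy, 1 had a difference as high, Dapl1, which was identified after the values were seen. The central 95% of these genes ran from -0.68 to 0.48. Among all compared genes Npy was the 59th highest difference. Its relatives Ppy and Pyy, at differences of 0.09 and 0.03, read near the top of the scale.

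Ucn3, which encodes urocortin 3, a peptide that beta cells release and that stimulates somatostatin release from delta cells, stood on the opposite side. It read 10.80 in transgenic and 11.61 in control islets, a log2 difference of -0.81 or 1.75-fold lower. Its rank was 1687 among transgenic and 820 among control values. Of 715 genes within 0.5 of its mean level 9 had a difference as low, and the central 95% of them ran from -0.63 to 0.51. The order of the values of Npy and Ucn3 thus differed between the arrays, with Npy 1.07 above Ucn3 on the transgenic array and below it on the control array. That order mixes the binding of different probes, and only the change between arrays can be read from it.

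Ghrl encodes ghrelin, the appetite hormone that epsilon cells make in the islet. It read 7.22 in transgenic and 6.57 in control islets, a difference of 0.65, at rank 14294 on the transgenic and 17441 on the control array. Differences of this size were frequent at that level: of 2247 genes within 0.5 of it, 217 were as high, and the central 95% ran from -0.62 to 1.23. Mboat4, the enzyme that attaches the fatty acid ghrelin needs for activity, was under the floor on both arrays. Cck, which encodes cholecystokinin, a gut hormone that drives enzyme release from acinar cells, read 5.07 in transgenic and 4.25 in control islets. Both values were under the floor, at rank 27412 on the transgenic and 33876 on the control array, so no fold is given and Cck was left out of the counts.

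The compared genes that mature these hormones differed by less than 2-fold. The convertase gene Pcsk2 was listed but had no probe set assigned to it alone, so it was not compared. Of 26 listed genes of prohormone processing 23 were compared, 14 of them with a positive difference, none at least 2-fold higher (2.51% of all compared genes) or lower (0.511%), and the median was 0.034. A count of 0 in lists of this size is near those shares of all genes, here and for the granule proteins and transcription factors described next. Of all 12143 compared genes 6584 had a positive difference, the background for the count of positive differences in each list. Pcsk1, the convertase that begins the cutting of proinsulin, read 11.85 in transgenic and 11.37 in control islets, and the protease gene Ctsb read 11.90 in transgenic and 11.35 in control islets. Pcsk1n, which encodes an inhibitor of that convertase, read 11.48 in transgenic and 11.92 in control islets, and Scg5, the chaperone of the convertase Pcsk2, read 12.89 in transgenic and 13.09 in control islets. Cpe, which removes the basic residues left after cutting, differed by 0.03, but by -0.29 on a further probe set. Pam, which amidates amylin, neuropeptide Y and pancreatic polypeptide, differed by 0.36. Of the 4 other probe sets of Ctsb 1 had the opposite sign.

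Granule proteins are stored and released with the hormones. Of 18 listed genes 17 were compared, 9 with a positive difference, none past 2-fold (2.51% of all compared genes were higher and 0.511% lower), with a median of 0.041. Chromogranin B (Chgb) differed by 0.47 and chromogranin A (Chga) by -0.20. Rab27a, a small GTPase of granule docking, stood at 0.51, but a further probe set of it stood at -0.90. Cadps2, a priming factor, stood at -0.42.

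Hormone receptors and their partner or signalling proteins had a median level of 7.34 in transgenic and 7.14 in control islets. For all compared genes it was 8.24 in transgenic and 8.17 in control islets. Of 27 listed genes 26 had a probe set and 18 were compared, a share near that of all genes (12143 of 18193). Of the 18, 8 had a positive difference, and the median difference was -0.072. Cckar, the receptor through which cholecystokinin acts on acinar cells, was the only member past the 2-fold rule, at 7.05 in transgenic and 5.96 in control islets, 2.13-fold higher, where 2.51% of all compared genes were past it on that side. Crhr1, of the family that binds urocortins, stood at 0.74, while Crhr2, the receptor that prefers urocortin 3, was under the floor on both arrays. All 4 listed Y receptors, Npy1r, Npy2r, Npy4r and Npy5r, were under the floor too. Ramp3, a partner protein of the amylin receptor, stood at -0.50, and Glp1r, the GLP-1 receptor, at -0.43.

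Transcription factors that control the hormone genes held the narrowest range of these lists. Of 32 listed genes 22 were compared, 10 with a positive difference, none past 2-fold (2.51% of all compared genes were higher and 0.511% lower), with a median of -0.017 and a range of -0.30 to 0.32. Pdx1, an activator of the insulin and amylin genes, differed by 0.32, and by 0.37 on a further probe set. Nkx2-2 stood at 0.28, and Myt1 and Meis1 were the lowest at -0.30 and -0.28.

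Other peptide hormone genes, which the islet or its nerves, vessels and immune cells may express, were spread more widely. Of 68 listed genes 55 had a probe set and 23 were compared, 9 of them with a positive difference, and the median was -0.058. At least 2-fold higher were 4, against the 2.51% of all compared genes, and 1 was at least 2-fold lower, against 0.511%. Pdyn, the precursor of the dynorphin opioids, read 8.51 in transgenic and 6.96 in control islets, 2.93-fold higher. Igf1, insulin-like growth factor 1, read 7.25 in transgenic and 5.80 in control islets, 2.74-fold higher, and its 2 other probe sets gave 1.42 and 1.65. Tac1, the precursor of substance P, read 8.85 in transgenic and 9.88 in control islets, 2.04-fold lower, and Cort (cortistatin) followed at -0.27. The other genes past the rule were Igf2 at 1.44 and Agt (angiotensinogen) at 1.23, named after their values were seen.

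**Figure D4:**
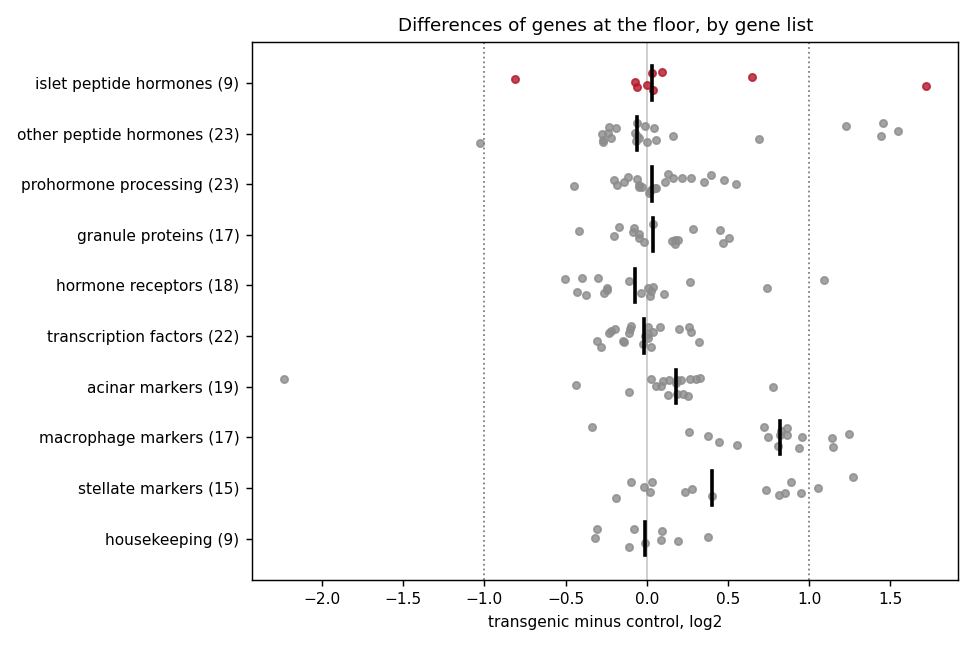
Transgenic minus control log2 difference (x axis) of each compared gene, by list, with the number of genes in brackets; each point is 1 gene, black bars are medians, dotted lines mark 2-fold, and vertical scatter within a row carries no value. The hormone genes, the processing enzymes, the granule proteins and the transcription factors centre near 0, with 6 of the 9 hormone genes near the top of the scale. Macrophage markers centre on 0.82 and stellate markers on 0.40.

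Markers of the endocrine cell types were also summarised without the hormones themselves. The 9 compared beta cell markers had a median of -0.0083, and 4 were positive. They ran from Glp1r at -0.43 to Sytl4 at 0.49, with the glucose transporter gene Slc2a2 at -0.33. The 7 alpha cell markers had a median of 0.017, with Dpp4 at 0.65 and Ttr at -0.25. Of the 7 delta cell markers Ptprz1 read 7.29 in transgenic and 5.36 in control islets, and Pdlim4 read 5.81 in transgenic and 4.95 in control islets. Both were under the floor in control islets and compared through the transgenic array alone, so no median is read. The others were Rbp4 at 0.30, the transcription factor gene Hhex at 0.26, Hhatl at 0.17, and Fxyd6 and Casr at -0.13. The 3 PP and epsilon cell markers had a median of 0.50, with Cmtm8 at 0.61 and Vtn at -0.24.

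Markers of other cells were measured in the same RNA. For comparison, 6584 of all 12143 compared genes had a positive difference. Of 19 compared acinar markers 16 had a positive difference, with a median difference of 0.18 and Pla2g1b highest at 0.78. Their median level was 13.51 in transgenic and 13.46 in control islets, so exocrine transcripts read high on both arrays. Lowest on that list were the protease gene Ctrc, at -2.23 or 4.70-fold lower in transgenic islets, and the transcription factor gene Bhlha15 at -0.44. Macrophage markers were higher in transgenic islets in 16 of 17 genes, with a median difference of 0.82 and median levels of 9.00 in transgenic and 7.85 in control islets. Stellate and fibroblast markers had a median difference of 0.40 (12 of 15 positive), and of 0.81 with a floor at the 75th percentile. Lum reached the main floor on the transgenic array alone, and Pdgfrb, Postn and Col1a2 so reached the stricter floor, which raises these medians. The enterocyte gene Fabp2 read 8.47 in transgenic and 3.64 in control islets, and Fabp1 read 7.96 in transgenic and 3.66 in control islets. Both control values were under the floor, and since several genes of the enterocyte and enteroendocrine list were compared through the transgenic array alone, no median or count is read for that list. Endothelial, ductal and lymphocyte markers had medians of 0.045, 0.17 and -0.049. The part of these cells in the values of Npy, Ghrl, Pdyn and Igf1 was not tested.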

How the data were processed

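Biotin-labelled copies of islet total RNA were measured on Affymetrix mouse arrays, 1 array for each of 2 samples. The deposited values are log2 values per probe set, made by the authors with RMA in Affymetrix Expression Console, per the submitters' processing notes. The labels name no version of either tool. Groups follow the genotype in the labels. Of 45101 probe sets 34945 had 1 gene symbol in the platform's annotation, and 34741 of these were matched by identifier to the GRCm38.p6 gene table. Probe sets with several symbols or none (932 and 9160) and the 64 array controls were left out of gene results.

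Of several probe sets a gene took that with the highest mean level, and was compared if a value reached the floor of 5.76. Every difference is transgenic minus control, and the size rule was 2-fold. From each list up to 2 genes with the highest and 2 with the lowest difference were named, besides genes chosen for their role. The hormone genes and all lists were chosen with earlier results of these data known. The calculation was run on simulated data with an assumed noise, in which 200 genes were shifted by more than the size rule. That run checks the code only. It does not measure the noise of these arrays or the reading of smaller differences. Python 3.11.15, numpy 2.4.6, pandas 2.3.3 and statsmodels 0.14.6 were used. The number of arrays limits the precision.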

Additional observations from a re-analysis of the deposited data

How the results depend on the processing

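Settings tried were averaging a gene's probe sets, dropping the classes _s, _x and _a, no floor or one at the 75th percentile, a lowess trend (span 0.3) subtracted from the differences, a second quantile normalization, centring on housekeeping genes, leaving out hormones above 13, and a 1.5-fold rule for the counts. Npy was at least 2-fold higher under each, and its difference ran from 1.71 to 1.73. Ucn3 ran from -0.81 to -0.80 and Ghrl, where it was measured, from 0.59 to 0.66. These 3 genes have 1 probe set each, outside the dropped classes. Only the lowess trend, the second normalization and the centring could therefore change their differences, and the other settings do not test them. With the 1.5-fold rule 2 hormones were higher and 1 was lower, against 7.73% and 3.14% of all compared genes. Without hormones above 13 the median of the 3 that remained was 0.65. The median of all hormones was -0.0025 after the lowess subtraction and -0.0074 after the second normalization. Iapp, Pyy and Sst had negative differences under at least 1 setting, and Ppy came to 0 under the second normalization. Every setting reworks the same 2 arrays, so a sign that held, as for Ins2 and Gcg, does not settle a direction either. Without the _s, _x and _a classes Ins2 and Gcg had no probe set. Of the other lists, the stellate median was 0.81 with the stricter floor. The enterocyte median shifted with probe sets averaged, with no floor and with the stricter floor. It is not read, since several genes of that list were compared through the transgenic array alone. A change was counted as small below 0.28, the median gap between probe sets of a gene. No paired analysis was possible because each group holds 1 array. Nor could a replicate be left out. Signals near the top of the scale and under the floor limit what the hormones can show.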
